A study of Homo sapiens with 6 samples.

Results

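The endoplasmic reticulum unfolded protein response is described here through 10 genes, read in cells depleted of the splicing factor SLU7. They were chosen by name: the chaperones HSPA5, HYOU1 and CALR, the chaperone partner SDF2L1, the disulfide isomerases PDIA4 and PDIA6, the stress sensors ATF6, ERN1 and EIF2AK3, and the transcription factor XBP1. Each of the 10 genes had exactly 1 transcript cluster (all of the array's probe sets for a gene) annotated with its symbol alone, and these are 10 of 15949 genes with a single symbol on the array. SLU7 siRNA cells were PLC/PRF/5 cells, an established human hepatocellular carcinoma line, transfected with siRNAs against SLU7 and collected after 48 h (3 arrays). Control siRNA cells were the same line transfected with an irrelevant siRNA (siGL) for the same 48 h (3 arrays). In the series' design the control is 1 siRNA, but the samples carry it as siGL with a number that differs by array. That number was taken to mark the replicate. If it marked distinct siRNAs, the control spread would include differences between them. Both groups received the lipid reagent Lipofectamine RNAiMAX, grew in the same serum-supplemented medium, and carried no other agent or allele named in the labels. By its title, the study asks what SLU7 does for the differentiated state, the metabolism and the resting state of liver cells. The comparison rests on 1 cell line. Nothing in the labels says that replicates were separate cultures, so the p-values reflect the scatter of these arrays, which could be technical.

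The unfolded protein response matches the folding capacity of the endoplasmic reticulum (ER) to the load of proteins that enter it, and secretory cells such as hepatocytes depend on it. The chaperone BiP, encoded by HSPA5, binds the sensors ATF6, IRE1 (encoded by ERN1) and PERK (encoded by EIF2AK3) and is drawn away when unfolded proteins accumulate. ATF6 is then cut in the Golgi to release a transcription factor, IRE1 removes a short intron from XBP1 mRNA so that an active factor is made, and PERK phosphorylates the translation factor eIF2alpha, which slows protein synthesis and favours translation of ATF4. ATF6 and XBP1 act on the genes of chaperones, isomerases and degradation factors through ER stress elements in their promoters.

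Those elements are shown first. Genes named for this response are known to be controlled through them, so matches here are not independent of the choice of genes. RefSeq promoter windows (assembly GRCh38.p14, 250 bases before to 50 bases after each annotated start) were available for all 10 genes, in 13 windows. Each window was searched on both strands for the ER stress element ERSE (CCAAT, then 9 bases of any kind, then CCACG), for its shorter form ERSE-II (ATTGG, then 1 base of any kind, then CCACG) and for the core of the unfolded protein response element (TGACGTGG). An exact ERSE stood in the windows of HSPA5, XBP1, CALR and PDIA6, and an exact ERSE-II in those of HYOU1, which held 2 copies, and SDF2L1. That is 4 of 13 windows for ERSE and 2 of 13 for ERSE-II, against 0.0769% and 0.0541% of 35116 windows of all genes. The core element was found in 1 of the 13 windows, that of HYOU1, where it overlaps the ERSE-II copy farther from the start, against 0.729% of all windows. The stretches around the matches are given 5′ to 3′ on the strand of the gene, with the matched bases in capitals. A match written as CGTGG first lies on the opposite strand.
HSPA5 (chr9:125241371-125241429, minus strand): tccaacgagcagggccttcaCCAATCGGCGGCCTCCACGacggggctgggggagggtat
XBP1 (chr22:28800583-28800641, minus strand): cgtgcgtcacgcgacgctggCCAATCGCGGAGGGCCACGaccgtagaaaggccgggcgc
PDIA6 (chr2:10812833-10812891, minus strand): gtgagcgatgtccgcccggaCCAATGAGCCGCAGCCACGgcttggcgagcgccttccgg
CALR (chr19:12938364-12938422, plus strand): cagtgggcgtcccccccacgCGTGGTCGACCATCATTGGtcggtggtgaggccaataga
HYOU1 (chr11:119057254-119057410, minus strand): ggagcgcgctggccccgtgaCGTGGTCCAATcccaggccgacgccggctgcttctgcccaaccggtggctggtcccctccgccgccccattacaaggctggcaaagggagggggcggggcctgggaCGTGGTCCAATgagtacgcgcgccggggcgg
SDF2L1 (chr22:21642094-21642144, plus strand): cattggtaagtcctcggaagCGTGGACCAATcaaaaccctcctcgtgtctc

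In the windows of HSPA5, XBP1 and PDIA6 the ERSE lies close to the start of the gene, beginning 66, 52 and 86 bases before it, and in that of CALR it begins 225 bases before it. The PDIA6 match belongs to the second of its 2 annotated starts. None of these letters occurs in the windows of ATF6, ERN1, EIF2AK3 or PDIA4. A match describes the sequence only, and binding was not measured in these cells.

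**Figure D1:**
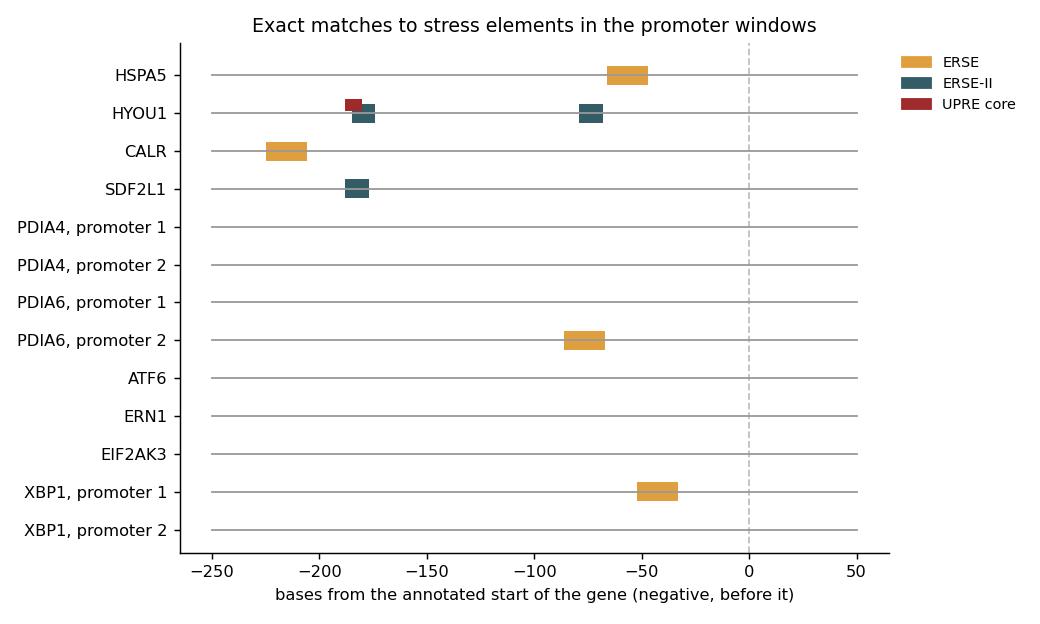
Positions of exact matches to 3 stress elements in the RefSeq promoter windows of the 10 genes, drawn as distance in bases from the annotated start (dashed line), 1 row per window. ERSE or ERSE-II appears in 6 of the 10 genes, and HYOU1 holds 2 ERSE-II copies with the core element overlapping the one farther from the start.

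Across the series, array medians lay between 6.61 and 6.63 log2 units and the lower quartiles between 4.86 and 4.98. SLU7 itself averaged 5.87 ± 0.31 log2 units in SLU7 siRNA arrays and 7.38 ± 0.46 in control siRNA arrays (SD, n = 3 each), 35.2% of the control level, with a limma adjusted p of 0.0783 over all clusters. On the first principal component (36.6% of the variance), SLU7 replicate 1 and control replicate 2 lay together and away from the remaining 4 arrays, so values are also given for that pair and for the remaining 4 arrays on their own. Of 17 hepatocyte and hepatoma markers, 15 were measured, 7 of them above the upper quartile of clusters, among them TF, APOA1 and KRT18. Below the lower quartile lay 3 of them. ALB, the albumin gene, was at 3.07 and 3.87 log2 units in SLU7 and control siRNA cells, APOH at 4.36 and 4.83, and SERPINA1 at 4.56 and 5.07. AFP reached 5.21 and 6.01. The line's hepatocyte identity thus rested on only part of the list. Of the 9 measured blood and endothelial markers, 1 lay above the upper quartile, LYZ (lysozyme), at 9.17 and 10.07, and 2 lay below the lower quartile, the leukocyte marker PTPRC at 2.13 and 2.05 and the T-cell marker CD3E at 4.76 and 4.47.

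The 6 chaperone and isomerase genes all had negative differences after SLU7 depletion, as did 9266 of all 18708 clusters. None of the 6 passed the test over all clusters, and their median was -0.68 log2 units. In 4 of them every SLU7 siRNA array was below every control array (66.7%, against 9.21% of all clusters), and HSPA5 and PDIA6 overlapped. The sensor gene ATF6 was 1.58-fold higher in SLU7 siRNA cells without overlap, ERN1 was 1.73-fold lower with overlap, and XBP1 differed by 0.08 log2 units, within its spread. Over all 10 genes the median difference was -0.52, where that of all 18708 clusters was 0.004.

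None of the 10 genes passed limma's adjusted p of 0.05 over all clusters, where 0.433% of clusters did (0.299% lower and 0.134% higher). At an unadjusted p under 0.05, limma gave 4 genes lower (HYOU1, PDIA4, ERN1, SDF2L1) and 1 higher (ATF6), in a table where 6.54% of clusters were lower and 6.55% higher by that rule. The groups did not overlap in 4 genes that were lower, where 9.21% of all clusters behaved so, and in 1 gene that was higher, where 9.64% did. The smallest difference called anywhere in the table was 2.72-fold, larger than that of any of the 10 genes.

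**Figure D2:**
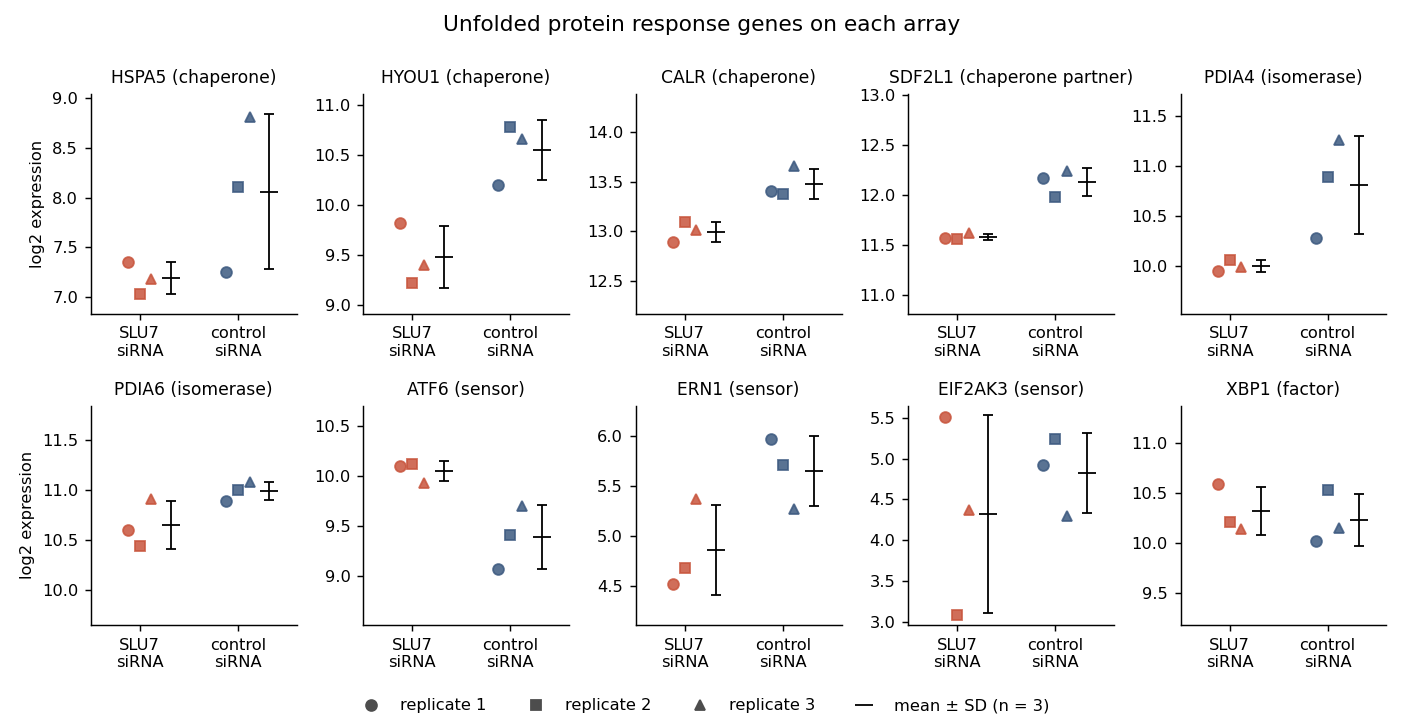
log2 expression of the 10 genes on each array, 1 panel per gene with its own axis, SLU7 siRNA left and control siRNA right, with the mean ± SD (n = 3) in black. HYOU1, CALR, SDF2L1 and PDIA4 are lower and ATF6 is higher on all SLU7 siRNA arrays than on any control array, and the other 5 genes overlap.

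HSPA5 encodes BiP, the main chaperone of the ER lumen and the repressor of the sensors. It read 7.35, 7.03 and 7.18 log2 units in SLU7 siRNA replicates 1 to 3, against 7.25, 8.11 and 8.81 in control siRNA replicates 1 to 3. Control replicate 1 lay among the SLU7 siRNA arrays, and the other 2 control arrays lay above them all. The difference of -0.87 ± 0.39 (SE) log2 units, or 1.83-fold lower, had a limma adjusted p of 0.392. It leans on the control arrays, being -1.28 without control replicate 1 and -0.49 without control replicate 3.

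HYOU1 (also called GRP170 or ORP150) is a large chaperone that also exchanges the nucleotide bound to BiP. It read 9.82, 9.22 and 9.40 in SLU7 siRNA cells, against 10.20, 10.78 and 10.66 in control siRNA cells. The groups were 0.39 log2 units apart at their nearest arrays. The difference of -1.07 ± 0.28 (SE), or 2.10-fold lower (95% interval 1.34 to 3.28), was the largest of the 10 genes, with a limma adjusted p of 0.144. It was -0.96 within the pair that stands apart and -1.12 within the other 4 arrays. With array weights or with that pair as a block HYOU1 passed over all clusters (limma adjusted p = 0.0435 and 0.0444, in a range of 0.0435 to 0.415 over all alternatives). In those settings the calls over all clusters also rose, from 81 to 575 and 783, and the pair was read off these same arrays.

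CALR encodes calreticulin, a lectin chaperone that holds glycoproteins in the ER until they are folded and that buffers calcium. It read 12.89, 13.09 and 13.01 in SLU7 siRNA cells, against 13.41, 13.38 and 13.66 in control siRNA cells. All 3 SLU7 siRNA arrays were below all control arrays, by 0.29 log2 units at the nearest. The difference was -0.49 ± 0.24 (SE) log2 units, or 1.40-fold lower, with a limma adjusted p of 0.447. It was the same, -0.49, within the pair and within the other 4 arrays.

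SDF2L1 encodes a small stress-inducible ER protein that works with a J-domain partner of BiP. It read 11.57, 11.56 and 11.62 in SLU7 siRNA cells, against 12.17, 11.98 and 12.24 in control siRNA cells. The SLU7 siRNA arrays were tightly grouped, with an SD of 0.03, and none overlapped the controls. The difference was -0.54 ± 0.23 (SE), or 1.46-fold lower, with a limma adjusted p of 0.369. Its paralog SDF2, which is made without stress, differed in the other direction, at 9.39 ± 0.11 log2 units in SLU7 siRNA cells and 8.87 ± 0.20 in control siRNA cells (SD, n = 3 each), without overlap. The SDF2 difference of 0.52 ± 0.24 (SE) had a limma adjusted p of 0.426. Whether these paralogs differ from each other was not tested.

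The isomerases PDIA4 (ERp72) and PDIA6 (P5) make and rearrange disulfide bonds, and PDIA6 also acts on the sensors IRE1 and PERK. PDIA4 read 9.95, 10.06 and 9.99 in SLU7 siRNA cells, against 10.28, 10.89 and 11.26 in control siRNA cells. The SLU7 siRNA arrays were tightly grouped (SD 0.06) and lay below all controls, among which replicate 1 was the lowest, as for HSPA5. The difference was -0.81 ± 0.30 (SE), or 1.75-fold lower, with a limma adjusted p of 0.291. PDIA6 read 10.60, 10.44 and 10.91 in SLU7 siRNA cells, against 10.89, 11.00 and 11.08 in control siRNA cells. SLU7 replicate 3 lay just above the lowest control, so the groups overlapped. Its difference of -0.34 ± 0.25 (SE) had a limma adjusted p of 0.657.

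ATF6, the membrane-bound factor that drives many ER chaperone genes once released, was the only one of the 10 genes above control without overlap. It read 10.10, 10.12 and 9.93 in SLU7 siRNA cells, against 9.07, 9.41 and 9.70 in control siRNA cells. The difference was 0.66 ± 0.26 (SE) log2 units, 1.58-fold, with a limma adjusted p of 0.332. It was 0.70 within the pair that stands apart and 0.64 within the other 4 arrays. The value is the level of the mRNA, and cleavage of the protein was not measured.

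ERN1 encodes IRE1, a kinase and endoribonuclease. It read 4.52, 4.68 and 5.37 in SLU7 siRNA cells, against 5.97, 5.71 and 5.27 in control siRNA cells. SLU7 replicate 3 lay just above control replicate 3, and the remaining arrays separated. The difference was -0.79 ± 0.32 (SE), or 1.73-fold lower, with a limma adjusted p of 0.342, and 2 SLU7 siRNA arrays lay below the lower quartile of the array, which leaves the fold uncertain. XBP1, the target of IRE1, read 10.59, 10.21 and 10.14 in SLU7 siRNA cells, against 10.02, 10.53 and 10.15 in control siRNA cells. The groups were interleaved, with a difference of 0.08 ± 0.27 (SE) and a 95% interval of -0.53 to 0.69. A single value per cluster does not separate XBP1 mRNA cut by IRE1 from uncut mRNA.

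EIF2AK3 encodes PERK, the kinase that restrains translation. It read 5.51, 3.08 and 4.37 in SLU7 siRNA cells, against 4.92, 5.24 and 4.29 in control siRNA cells. The SLU7 siRNA arrays spanned the controls on both sides, with an SD of 1.21. The difference of -0.49 ± 0.57 (SE) had a limma adjusted p of 0.82, and it was 0.12 without SLU7 replicate 2, the array with the lowest value.

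**Figure D3:**
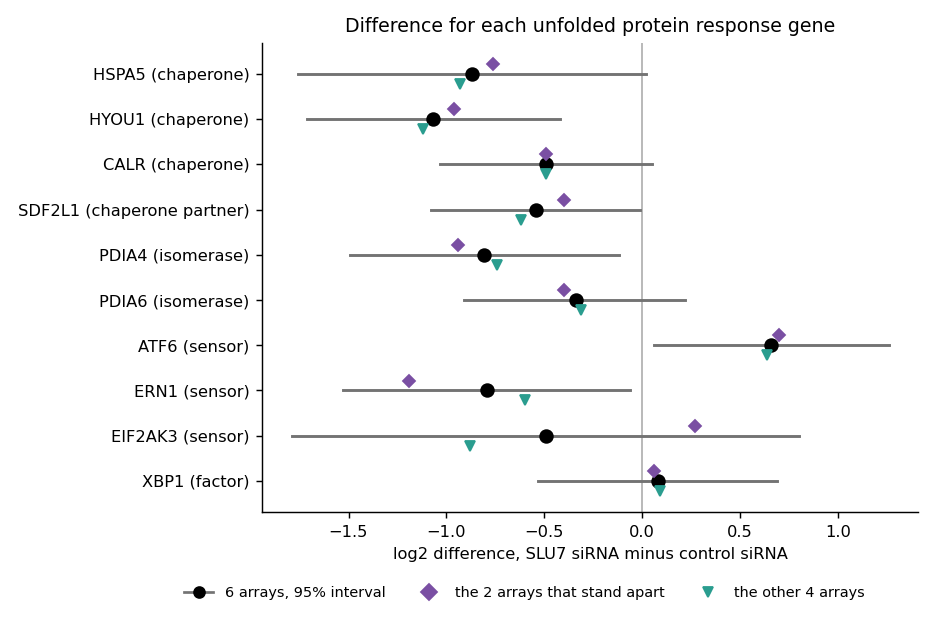
log2 difference between SLU7 siRNA and control siRNA for each of the 10 genes, as the limma estimate over 6 arrays with its 95% interval (black), within the 2 arrays that stand apart (diamonds, no error) and within the other 4 arrays (triangles). The 6 chaperone and isomerase genes lie left of 0 in all 3 readings, ATF6 lies right of 0 in all 3, and EIF2AK3 changes side.

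The 6 chaperone and isomerase genes varied together over the 6 arrays, as a description: their 15 pairs had Pearson correlations from 0.70 to 0.96, a range that includes the difference between the groups. After removing each group's mean, these correlations ran from -0.30 to 0.95 (median 0.31), the highest for HSPA5 and PDIA4. The 30 pairs that involve ATF6, ERN1, EIF2AK3 or XBP1 then ran from -0.81 to 0.95 (median 0.01). ATF6 reached 0.95 with PDIA4 and 0.93 with HSPA5, so values this high were not limited to pairs of chaperones and isomerases. ATF6 ran against ERN1 over the 6 arrays (r = -0.93). Among 8454 other clusters with 1 symbol and a level above the median, those most like HSPA5 over the 6 arrays were CNDP2 (r = 0.993), SUN5 (r = 0.99) and TRIM15 (r = 0.988). All these correlations share the same 6 arrays.

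The wider ER machinery was read from 6 lists of other genes, 96 in all, of which 90 were measured. None of the 90 passed limma's adjusted p, and at an unadjusted p under 0.05 there were 12 lower (13.3%, against 6.54% of all clusters) and 3 higher (3.33%, against 6.55%). The groups did not overlap in 16 that were lower (17.8%, against 9.21%) and 7 that were higher (7.78%, against 9.64%). Their median difference was -0.09. Beyond the largest non-overlapping difference in each direction of each list, genes from these lists are named with their values already known.

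Among the other ER chaperones and co-chaperones, lower values were common. Of 16 measured, 7 were lower without overlap (43.8%, against 9.21% of all clusters) and 1, SDF2, was higher, with a median of -0.27. CRELD1, a membrane-anchored relative of CRELD2, had the largest difference, at 5.10 ± 0.82 log2 units in SLU7 siRNA cells and 6.79 ± 0.84 in control siRNA cells (SD, n = 3 each), 3.21-fold lower, with a limma adjusted p of 0.198. UGGT1, the sensor of glycoprotein folding that returns clients to calreticulin and calnexin, differed by -1.04 ± 0.28 (SE) and CANX, calnexin itself, by -0.71 ± 0.31. The BiP co-chaperones DNAJC10 and DNAJC3 differed by -0.83 and -0.64, and CRELD2, a stress-induced ER protein, by -0.71. HSP90B1 (GRP94), the ER form of HSP90, read 9.72, 10.56 and 9.72 in SLU7 siRNA cells, against 9.91, 9.01 and 10.20 in control siRNA cells, with overlap.

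Of 11 measured genes of other isomerases and of ER oxidation, none was lower without overlap (against 9.21% of all clusters), and the median was -0.02. Only ERP29, a relative of the isomerases, was higher without overlap (9.09%, against 9.64% of all clusters). It was at 12.03 ± 0.10 in SLU7 siRNA cells and 11.54 ± 0.28 in control siRNA cells (SD, n = 3 each; limma adjusted p = 0.483). Of 19 measured genes of ER-associated degradation, 3 were lower (15.8%, against 9.21% of all clusters) and 1 was higher (5.26%, against 9.64%) without overlap, with a median of -0.25. The one that was higher, FAF2, which recruits the VCP segregase to the ER membrane, read 11.16, 11.11 and 11.19 in SLU7 siRNA cells, against 9.89, 9.77 and 10.13 in control siRNA cells. Its difference of 1.22 ± 0.24 (SE), 2.33-fold, had a limma adjusted p of 0.0691 and passed without the dimmer clusters (0.0324), with a variance trend (0.0116), with array weights (0.0282) and with the pair as a block (0.0286), in a range of 0.0116 to 0.266 over all alternatives. UBXN4, another VCP adaptor of the ER membrane, had the largest negative difference, -0.90 ± 0.35 (limma adjusted p = 0.319), and passed with the pair as a block (adjusted p = 0.0429, in a range of 0.0429 to 0.556 over all alternatives). Each setting in which FAF2 or UBXN4 passed also raised the number of clusters called.

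Among 19 genes of protein entry into the ER, 3 were lower without overlap (15.8%, against 9.21% of all clusters) and 1 was higher (5.26%, against 9.64%), with a median of -0.18. The one that was higher was SRP68 of the signal recognition particle (0.25 ± 0.23 SE, limma adjusted p = 0.764). SEC61A1, the channel of the translocon, was at 11.13 ± 0.09 log2 units in SLU7 siRNA cells and 11.85 ± 0.17 in control siRNA cells (SD, n = 3 each), 1.65-fold lower (limma adjusted p = 0.231). Of 14 measured genes that activate the sensors or resemble them, 4 were lower without overlap (28.6%, against 9.21% of all clusters), with a median of -0.11. Apart from DNAJC3 these were the membrane-bound factors CREB3L1, CREB3L3 and CREB3L4, relatives of ATF6, of which CREB3L4 had the largest difference, -0.93 ± 0.32 (SE; limma adjusted p = 0.253). CREB3L1 lay below the lower quartile of the array, at 3.78 and 4.33 log2 units in SLU7 and control siRNA cells. The proteases that release ATF6, MBTPS1 and MBTPS2, differed by -0.10 and -0.03.

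The list of the PERK branch also holds the other kinases of the same translation factor. Of its 12 measured genes, 10 were above 0 (83.3%, against 50.5% of all clusters), with a median of 0.26, and none passed limma's adjusted p (2 higher at an unadjusted p under 0.05). Without overlap, 3 were higher (25%, against 9.64% of all clusters) and none was lower. PERK itself, EIF2AK3, is not in this list and had a negative difference, as did CHAC1 (-0.07) and EIF2S1 (-0.05). EIF2AK4, the amino-acid sensing kinase that acts on the same translation factor as PERK, differed by 0.98 ± 0.39 (SE; limma adjusted p = 0.324), but by 0.60 without SLU7 replicate 3. DDIT3, the pro-apoptotic factor CHOP, read 7.52, 7.63 and 7.40 in SLU7 siRNA cells, against 6.80, 6.72 and 6.58 in control siRNA cells, 1.76-fold higher (limma adjusted p = 0.17). NFE2L2, the oxidative stress factor NRF2, was also higher without overlap, by 0.18 ± 0.24 (SE), but its nearest arrays were only 0.03 log2 units apart. The difference between this list and the chaperones was not tested.

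**Figure D4:**
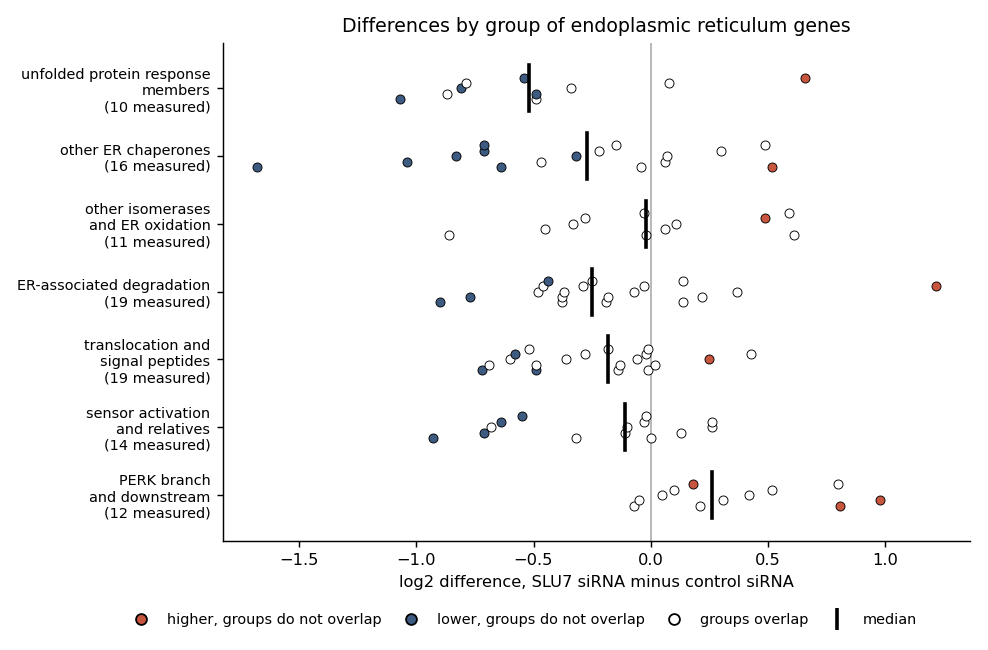
log2 difference between SLU7 siRNA and control siRNA for each measured gene, 1 row per group of ER genes, with filled points where the 3 arrays of each group do not overlap and a bar at the group's median. Among the 16 other ER chaperones 7 points are lower without overlap (43.8%), and among the 12 genes of the PERK row none is. Over all clusters the share is 9.21%. The median of the PERK row is 0.26, and the difference between these rows was not tested.

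The stress elements pick out a further set of genes by sequence alone, a search made after the values of the 10 genes had been seen. Of 38 genes outside the 10 whose windows hold ERSE or ERSE-II, 26 were measured, with a median of -0.10. Without overlap, 7 were lower (26.9%, against 9.21% of all clusters) and 3 were higher (11.5%, against 9.64%). Only FICD among the 26 passed limma's adjusted p, as did 0.433% of all clusters (0.299% lower). FICD encodes the ER enzyme that attaches AMP to BiP and removes it, and holds an ERSE. It read 3.03, 3.67 and 3.17 in SLU7 siRNA cells, against 4.78, 5.08 and 5.37 in control siRNA cells. The difference of -1.79 ± 0.29 (SE) log2 units, or 3.46-fold lower (95% interval 2.20 to 5.44), had a limma adjusted p of 0.0485. The SLU7 siRNA arrays lay below the lower quartile of the array, which leaves the fold uncertain. Without any 1 array FICD did not pass (limma adjusted p from 0.079 to 0.18, and from 0.0191 to 0.183 over the alternatives that kept it). The filter on dim clusters removes FICD. The others that were lower without overlap were CANX, CRELD2, SERP1, which stabilises new membrane proteins, and TMEM120A with ERSE, and NAV2 and RUVBL2 with ERSE-II. NAV2 was dim, with means of 2.89 and 4.46 log2 units in SLU7 and control siRNA cells, below the lower quartile of the array. CANX and CRELD2 were already counted among the chaperones. Of the 26, 15 had negative and 11 had positive differences. The positive ones included HERPUD1 with ERSE-II (0.37) and HSP90B1 with ERSE (0.30), both with overlap. Those that were higher without overlap were the zinc finger gene ZNF17 with ERSE, by 0.97 ± 0.26 (SE; limma adjusted p = 0.144), and RAD9A and SETD3 with ERSE-II. Of the 10 genes of the response, the 6 with either element had a median of -0.52 and the 4 without had one of -0.64, and both sets held lower genes.

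Most markers of the hepatocyte line itself had negative differences in the same arrays (14 of 15 measured). Of the 15 measured, 7 were lower without overlap (46.7%, against 9.21% of all clusters), and the median was -0.46. For APOA2 and KRT18 among these 7 the nearest arrays were only 0.01 log2 units apart or less. No marker was called by limma over all clusters. At an unadjusted p under 0.05 limma gave 4 lower, in a table where 6.54% of clusters were lower by that rule. Summed over the list on the linear scale, they ranged from 16639 to 18218 in SLU7 siRNA arrays and from 22965 to 25080 in control siRNA arrays. FGB, a fibrinogen chain, differed by -1.07 and APOA1, an apolipoprotein, by -0.93. The other fibrinogen chains FGA and FGG differed by 0 and 0.02, and the apolipoprotein APOA2 by -0.38. The part of the hepatocyte markers in the differences of the ER genes was not tested. In bulk RNA, fewer cells of a kind and less RNA per cell cannot be told apart. The 9 measured markers of blood and endothelial cells summed to 981 to 1137 in SLU7 siRNA arrays and 1373 to 1759 in control siRNA arrays. That separation rests on LYZ, which was lower without overlap (-0.89 ± 0.32 SE, limma adjusted p = 0.282): without it the other 8 summed to 401 to 584 in SLU7 siRNA arrays and 485 to 561 in control siRNA arrays. The 11 markers of fibroblasts and stellate cells summed to 699 to 771 in SLU7 siRNA arrays and 632 to 909 in control siRNA arrays.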

How the data were processed

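Biotin-labelled total RNA was measured on Affymetrix Human Exon 1.0 ST arrays, each holding a single sample. The authors deposited log2 values, 1 per transcript cluster, that were summarised with the core chip definition of aroma.affymetrix per the labels and normalized with RMA per the submitters' processing notes. The log2 scale was read from the values, which run from 0.96 to 14.49. The genome build is not given in the sources used here.

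Symbols were taken from the platform annotation in GEO, which gave 16287 of 18708 clusters a single one, with older symbols updated through RefSeq for GRCh38.p14. The brightest cluster stood for each gene. Groups were compared with limma 3.58.1 in R 4.3.3 (lmFit, eBayes, group only), with Benjamini-Hochberg adjustment over all clusters at 0.05. An exact two-sided permutation test of 1 gene cannot go below p = 0.1 with 3 arrays against 3. The test was checked on simulated data with changes larger than those of the 10 genes and without the split of the arrays. That check does not cover differences of the size seen here. The number of arrays limits the precision (median SE of a difference 0.312).

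The 10 genes, the lists and the tests were chosen with earlier results of these data known. By rule the text names SLU7, the 10 genes, called list genes, the largest non-overlapping difference in each direction of each list, and the 3 clusters most like HSPA5; other genes, FICD among them, were named after their values were seen. Alternatives covered the replicate number, dim clusters, scaling, the variance model, the threshold, the row per gene, single arrays and the 2 arrays that stand apart.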

Additional observations from a re-analysis of the deposited data

How the results depend on the processing

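Of the 10 genes, 8 kept their direction under every alternative run. XBP1, near 0 throughout, ran from -0.05 (without SLU7 replicate 1; -0.02 without control replicate 1) to 0.23 without any 1 array, and EIF2AK3 from -1.09 to 0.12 (without SLU7 replicate 2), with 0.27 within the 2 arrays that stand apart; EIF2AK3 is not among the clusters left by the filter on dim ones. The number of the 10 genes called was 1 (HYOU1) with array weights and 1 (HYOU1) with the pair as a block, and 0 otherwise. Their median stayed between -0.64 and -0.45, and the number without overlap between 5 and 7. Calls over all clusters were less stable: 81 became 324 without the dimmest 25% of clusters, 441 with a variance trend, 575 with array weights and 783 with the pair as a block, a block read off these same arrays, and 0 at a threshold of 0.01, in the other 4 arrays alone (2922 at an unadjusted p under 0.05) and without any 1 array (0 each time, 1833 to 2573 unadjusted). With replicate number as a block, limma called 0 clusters (1845 unadjusted) and FICD lost its call (adjusted p = 0.183). Deviations of same-numbered arrays correlated at -0.381, -0.314 and 0.141. Those of SLU7 replicate 1 and control replicate 2, the pair that stands apart, correlated at 0.517. That split weighs on these correlations, so they cannot decide whether same-numbered arrays were paired. The cause of the shifts in calls was not tested. Dim values limit EIF2AK3, ERN1, FICD, CREB3L1 and NAV2. Some arrays of CRELD1 and EIF2AK4 also lay below the lower quartile.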
